A study of Mus musculus with 2 samples.

Results

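Metalloproteinases and their Timp inhibitors were compared between 2 cell populations sorted as epithelium of the mouse hair follicle. The members were all probe sets annotated to a single gene whose symbol begins with Mmp, Timp, Adam, Adamts or Adamtsl followed by a digit. There were 124 such probe sets for 70 genes, of 34945 one-gene probe sets for 18193 genes in all. They comprised 18 Mmp genes, 4 Timp genes, 28 Adam genes and 20 Adamts genes, the last class including 5 Adamtsl genes. The mice were CD-1 pups of postnatal day 4, all double transgenic for a red reporter driven by keratin 14 and a green reporter for Sox9 (K14-RFP/Sox9-EGFP). The early bulge sample held follicle cells bright for both reporters, and the sample of outer root sheath (ORS) outside the bulge held cells bright for the red and negative for the green reporter. The bulge houses the stem cells of the follicle, and the ORS is its outermost epithelial layer. Both samples came from back skin treated with dispase, collagenase and trypsin, with dead and large differentiated cells gated out. The number of pups behind each sort is not stated in the labels. With a single array per population, ratios cannot be checked against replicates, and no test or p-value is given.

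Matrix metalloproteinases (Mmp) are zinc-dependent enzymes that cut collagens and other matrix proteins. Adam proteins are membrane-bound relatives, several of which shed growth factors, adhesion proteins and receptors from the cell surface. Adamts enzymes are secreted and act on proteoglycans and procollagens, and the Adamtsl proteins resemble them but lack the protease domain. The 4 Timps bind and block metalloproteinases. In skin these enzymes take part in basement membrane turnover, in the release of epidermal growth factor receptor ligands and in the migration of cells.

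Promoters of the genes described are shown first, since most promoters of one group of Mmp genes share sequence features. With 1 exception, the genes of this group had no signal above the floor on either array. A link between the sequences and the signals was not tested. All sequences are from RefSeq on the GRCm38.p6 build, whose promoter table matched 41 of the 70 genes with 46 promoters. The 250 bases before each annotated start were searched on both strands for TGACTCA, the site of the AP-1 (Fos and Jun) factors, for TATAAA, the core of the TATA box, and for GGGCGG, the GC box. On RefSeq, 10 Mmp genes lie side by side on chromosome 9 as Mmp13, Mmp12, Mmp1b, Mmp3, Mmp1a, Mmp10, Mmp8, Mmp27, Mmp20 and Mmp7, with no other protein-coding gene among them. All but Mmp27 were on the array with a probe set of their own. Of the 11 promoters of these 9 genes, 7 (63.6%) held TGACTCA, against 4.46% of all 32851 promoters. As many held TATAAA, against 12.4% of all, and none of the 11 held the GC box, against 32.7% of all. Mmp8 held none of the 3 motifs. The last 110 bases before the start are given 5′ to 3′ for 4 genes of this block that hold both TGACTCA and TATAAA. They are also given for Mmp14, which lies elsewhere in the genome and had a high signal on both arrays. Capitals mark the 3 motifs on either strand, so that the AP-1 motif also appears as TGAGTCA.
Mmp1a (chr9:7464031-7464140, plus strand): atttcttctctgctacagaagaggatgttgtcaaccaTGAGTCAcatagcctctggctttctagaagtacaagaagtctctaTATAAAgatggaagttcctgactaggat
Mmp3 (chr9:7445712-7445821, plus strand): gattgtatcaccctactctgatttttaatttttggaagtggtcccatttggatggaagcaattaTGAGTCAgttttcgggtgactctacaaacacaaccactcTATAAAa
Mmp10 (chr9:7502232-7502341, plus strand): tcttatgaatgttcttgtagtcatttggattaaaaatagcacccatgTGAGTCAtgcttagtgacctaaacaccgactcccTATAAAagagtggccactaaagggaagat
Mmp13 (chr9:7272404-7272513, plus strand): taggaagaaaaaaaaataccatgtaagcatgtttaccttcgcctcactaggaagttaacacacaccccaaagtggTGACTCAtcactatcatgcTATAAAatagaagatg
Mmp14 (chr14:54431488-54431597, plus strand): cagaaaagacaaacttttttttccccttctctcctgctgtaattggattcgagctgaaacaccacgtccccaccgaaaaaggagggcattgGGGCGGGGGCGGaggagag
In these windows the first base of the AP-1 motif lay 73 bases before the start in Mmp1a, 46 in Mmp3, 63 in Mmp10 and 35 in Mmp13. Mmp14 held a pair of GC boxes and neither of the other motifs. The matches describe letters only and say nothing of the factor.

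For the 5 genes called at least 2-fold apart that the promoter table matched, none of 6 promoters held TGACTCA or TATAAA and 1, that of Adamts20, held the GC box. The 250 bases before the start are shown for Timp4, the member with the largest ratio towards early bulge, for Adamts20, and for Timp3, whose 4 probe sets were all higher on the ORS array. Capitals again mark the motifs.
Timp3 (chr10:86300162-86300411, plus strand): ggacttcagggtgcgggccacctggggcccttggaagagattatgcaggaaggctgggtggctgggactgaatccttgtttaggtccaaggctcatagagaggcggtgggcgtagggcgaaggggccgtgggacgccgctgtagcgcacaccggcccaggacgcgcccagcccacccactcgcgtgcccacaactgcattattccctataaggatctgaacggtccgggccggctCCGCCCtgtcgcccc
Timp4 (chr6:115252206-115252455, minus strand): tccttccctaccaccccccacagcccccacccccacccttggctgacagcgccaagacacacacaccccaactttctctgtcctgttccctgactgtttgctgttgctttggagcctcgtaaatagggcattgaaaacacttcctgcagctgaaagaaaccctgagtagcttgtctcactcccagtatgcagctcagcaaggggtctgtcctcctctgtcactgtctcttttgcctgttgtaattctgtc
Adamts20 (chr15:94404351-94404600, minus strand): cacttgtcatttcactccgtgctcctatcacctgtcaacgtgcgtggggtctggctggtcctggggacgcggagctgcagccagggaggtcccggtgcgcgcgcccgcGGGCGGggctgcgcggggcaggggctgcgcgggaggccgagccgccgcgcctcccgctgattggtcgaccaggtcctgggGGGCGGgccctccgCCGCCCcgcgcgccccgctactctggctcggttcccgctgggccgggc
Timp4 held none of the 3 motifs, Timp3 held 1 GC box 15 bases before its start, and Adamts20 held 3.

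Signals are on the linear MAS5 scale. The 40th percentile of all pooled signals, 57.8, served as a floor below which signals were not ordered. A gene was taken as measured if its representing probe set, the one with the highest mean log2 signal, reached the floor on at least 1 array. Log2 ratios are early bulge over ORS. A ratio with 1 array below the floor uses the floor in its place, is a lower bound on the difference, and is written as at least N-fold. Sox9, the gene behind the green reporter, was 6.01-fold higher in early bulge, while other probe sets of it gave log2 ratios of 0.30 and 1.07. Krt14, whose promoter drives the red reporter that was bright in both sorts, was 2.23-fold higher in early bulge. All 8 keratinocyte markers were above the floor on both arrays and all were higher in early bulge, 4 of them past 2-fold, with a median log2 ratio of 0.85. The ORS array also carried more signal of dermal fibroblast genes, of which 12 of 13 were 2-fold or more higher there. Their summed signal was 7445 on the early bulge and 67464 on the ORS array. Of the 13, 12 were above the floor on both arrays. Pdgfra, a receptor of fibroblasts, was above it on the ORS array only, with signals of 11.3 and 738. Other probe sets of Pdgfra gave log2 ratios of -0.43 and -0.08. In RNA from sorted populations, fewer cells of a type and less RNA per cell cannot be told apart.

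Of the 70 genes, 44 (62.9%) were measured, against 72.8% of all genes. Of these 44, 15 passed through 1 array only. Past 2-fold towards early bulge were Timp4, Adamts15 and Adamts7, which is 3 of 44 genes (6.82%), against 7.3% of 13252 measured genes. Past 2-fold towards ORS were Adamts5, Adamts12, Mmp23, Adamts20, Adam12 and Adam22, which is 6 of 44 (13.6%), against 4.78% of measured genes. Past 4-fold were Timp4 towards early bulge, 1 of 44 against 1.87% of all measured genes, and Adamts5, Adamts12 and Mmp23 towards ORS, 3 of 44 against 1.32%. At 2-fold the share towards early bulge was thus near that of all genes, and the share towards ORS was above it. With median centring of the arrays the shares of all genes were 5.34% and 7.71%, and those of the 42 members then measured 7.14% and 16.7%. At any size, 27 of the 44 had the higher signal on the ORS array, against 47% of measured genes. The median log2 ratio of the measured members was -0.21, against 0.04 for all measured genes. Among probe sets, 4 of 77 measured ones (5.19%) passed 2-fold towards early bulge, against 6.75% of all, and 12 (15.6%) towards ORS, against 4.44%. Of the 9 genes past 2-fold, 5 rest on a bound and 3 have 1 probe set only.

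**Figure D1:**
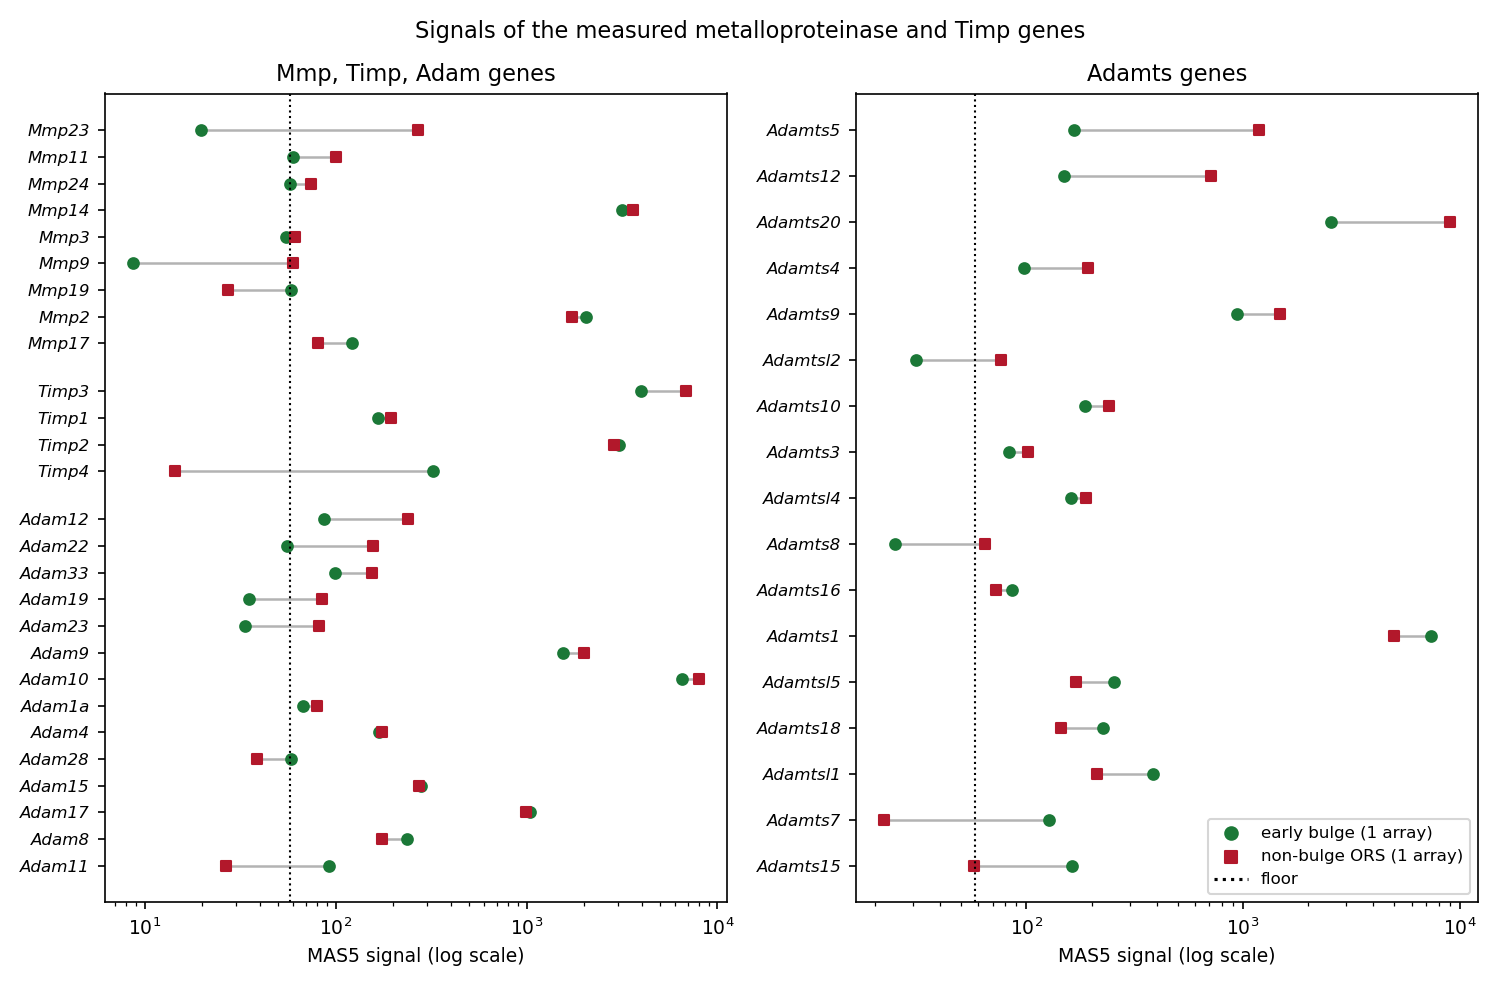
MAS5 signal (log scale) of the 44 measured genes on the early bulge array (circles) and the non-bulge ORS array (squares), ordered by ratio within each class, with the floor of 57.8 as a dotted line. Adamts5, Adamts12 and Adamts20 are above the floor on both arrays and higher on ORS, and Timp4 is above it on the early bulge array only.

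Of the 18 Mmp genes, 9 (50%) were measured, against 72.8% of all genes. Mmp23 alone was past 2-fold, which is 1 of 9 (11.1%) towards ORS, against 4.78% of measured genes. Mmp23 encodes a small membrane-anchored enzyme that lacks the hemopexin domain of most Mmps. Its signals were 19.6 on the early bulge and 271 on the ORS array, so that it was at least 4.69-fold higher on ORS. The second probe set of Mmp23 read 10.1 and 417, at least 7.22-fold higher on ORS. Both probe sets thus placed Mmp23 above the floor on the ORS array only.

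The gelatinase Mmp2 and its activator Mmp14, a membrane-type enzyme that also cuts fibrillar collagen, had clear signals on both arrays. Mmp2 read 2039 on the early bulge and 1737 on the ORS array, a log2 ratio of 0.23, and its second probe set gave 0.20. Mmp14 read 3155 and 3606, a log2 ratio of -0.19. Its other probe sets were dimmer, of which 1 gave -0.51 and 1 was at least 1.73-fold higher on ORS. The representing ratios of both genes were below 2-fold, within the range over which probe sets of one gene differ. The SD of the difference in log2 ratio between probe sets of one gene above the floor on both arrays was 0.48 over 9106 pairs of all genes. It was 0.58 where the dimmer probe set had a mean signal below 200 and 0.31 where it had 1000 or more.

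The other measured Mmp genes were near the floor. Mmp11, a stromelysin also found in stroma around epithelia, read 60.04 and 101, a log2 ratio of -0.75. Mmp17, an enzyme tethered to the membrane by a lipid anchor, read 122 and 80.7, a log2 ratio of 0.60. Mmp24, of the membrane type, read 57.6 on the early bulge and 74.7 on the ORS array. Only Mmp17 and Mmp11 of these reached the floor on both arrays. Mmp3, Mmp9 and Mmp19 each reached the floor on 1 array by a small margin. The stromelysin Mmp3 read 54.9 and 61.0, and the gelatinase Mmp9, abundant in neutrophils, read 8.67 and 59.8. Mmp19 read 58.6 and 27.3. Their bounds were all below 1.06-fold, so no ratio can be read from them.

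The collagenases and most of the chromosome 9 block were not measured. None of the 4 collagenases on the array (Mmp1a, Mmp1b, Mmp8 and Mmp13) reached the floor, nor did the matrilysin Mmp7 or the macrophage elastase Mmp12. Of the 9 block genes on the array, Mmp3 alone reached it. Over the 9 unmeasured Mmp genes the signals ran from 1.18 to 49.2 on the early bulge and from 3.88 to 35.4 on the ORS array. One of them, the membrane-type enzyme Mmp16, had another probe set above the floor, with signals of 7.06 and 81.3. Among the genes of the factors that bind TGACTCA, Fos read 16605 and 13273 and Jun read 16583 and 9770. Fosl1, of the same family, read 270.1 and 159.

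The 4 Timp genes were all measured and differed from each other in direction and size. Their median log2 ratio was -0.06 and their mean 0.39, opposite in sign, since Timp4 alone was far from 0 on the early bulge side. Timp4, the inhibitor with the most restricted known tissue pattern, read 324 on the early bulge and 14.4 on the ORS array, at least 5.61-fold higher on early bulge. Its second probe set read 75.5 and 22.5, at least 1.31-fold higher on early bulge. Timp4 was thus above the floor on the early bulge array only, by both probe sets, and the size of the difference rests on the brighter one.

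Timp3, the inhibitor that binds to the matrix and blocks several Adam and Adamts enzymes as well as Mmps, was higher on the ORS array by every probe set. The representing probe set read 3989 on the early bulge and 6849 on the ORS array, a log2 ratio of -0.78. The others read 2212 and 4889, 662 and 1517, and 276 and 666, with log2 ratios of -1.14, -1.20 and -1.27. The representing probe set was below 2-fold and the other 3 were above it, so that Timp3 does not count among the 9 genes although most of its probe sets pass. The mean over its probe sets gave a log2 ratio of -1.10.

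Timp2 and Timp1 were less than 2-fold apart. Timp2, which also helps Mmp14 to activate Mmp2, read 3067 and 2865, a log2 ratio of 0.10. Its other 4 measured probe sets lay between -0.25 and 0.38, and the sign of the ratio changed with median centring. Timp1, an inhibitor induced by growth factors and cytokines, read 166 and 194, a log2 ratio of -0.23, and had 1 probe set. On RefSeq, 3 of the Timp genes lie inside synapsin genes, Timp1 in Syn1, Timp3 in Syn3 and Timp4 in Syn2. Syn2 read 128 on the early bulge and 48.9 on the ORS array, at least 2.22-fold higher on early bulge, which is the direction of Timp4. Syn3 read 90.2 and 126, in the direction of Timp3, and Syn1 read 80.5 and 73.9, opposite to Timp1. Both were less than 2-fold apart, and a link between host and Timp signals was not tested.

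**Figure D2:**
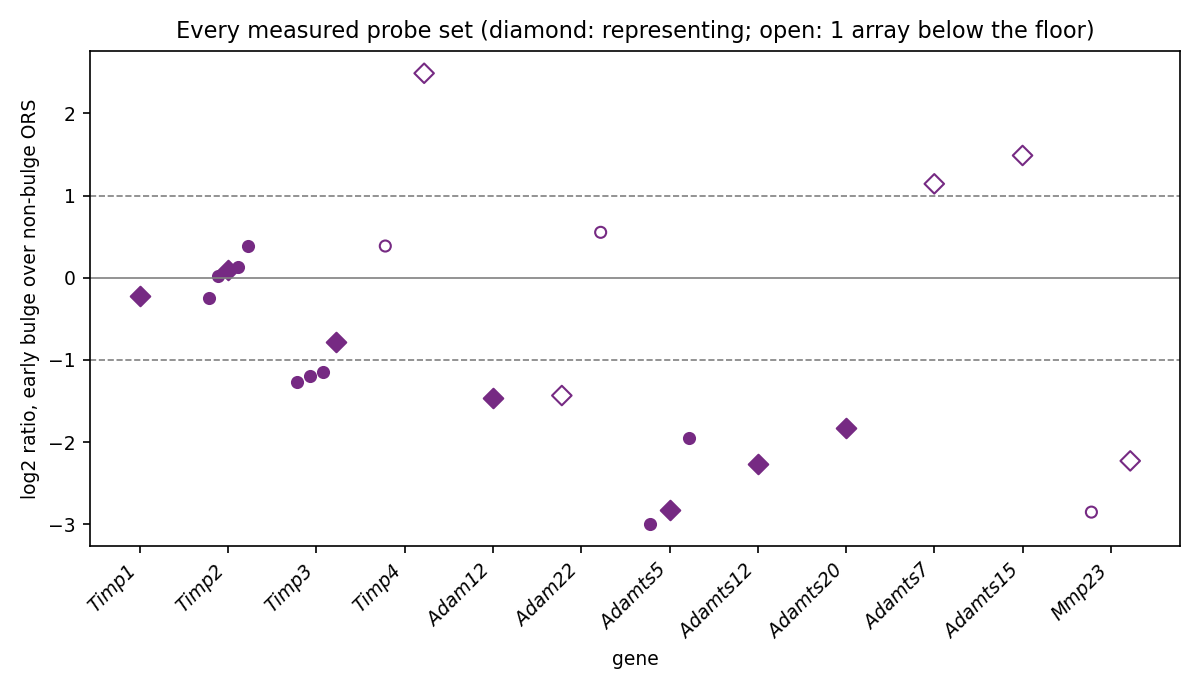
Log2 ratio (early bulge over non-bulge ORS) of every measured probe set of the 4 Timp genes and the other genes past 2-fold. Diamonds are the representing probe sets, open symbols have 1 array below the floor, and dashed lines mark 2-fold. All 4 probe sets of Timp3 lie between -0.78 and -1.27, while those of Adam22 lie on either side of 0.

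Of 28 Adam genes, 14 (50%) were measured, against 72.8% of all genes. Adam12 and Adam22 passed 2-fold towards ORS, which is 2 of 14 (14.3%), against 4.78% of measured genes. No Adam gene passed it towards early bulge, against 7.3%. The median log2 ratio of the 14 was -0.27. Adam12, a protease of growing mesenchyme and muscle, read 86.6 on the early bulge and 239 on the ORS array, 2.76-fold higher on ORS. Its second probe set was below the floor on both arrays. Adam22, a receptor without protease activity that binds Lgi proteins, read 55.7 and 156, at least 2.70-fold higher on ORS. Its second probe set read 84.8 and 37.3, at least 1.47-fold higher on early bulge, so the probe sets of Adam22 disagreed in direction.

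The main sheddases of the epidermis were clearly above the floor and close to equal on the arrays. Adam10, which cuts Notch receptors and E-cadherin, read 6513 on the early bulge and 7964 on the ORS array, a log2 ratio of -0.29. Of its other measured probe sets, 1 gave 0.03 and 1, dimmer, was at least 1.46-fold higher in early bulge. Adam17, which releases epidermal growth factor receptor ligands and Tnf, read 1046 and 991, a log2 ratio of 0.08, and its others gave 0.20 and 0.25. The sign for Adam17 changed under at least 1 rescaling of the arrays. Adam9, a widely expressed sheddase, read 1547 and 2009, a log2 ratio of -0.38. No representing ratio of these sheddases passed 2-fold in either direction. Of the remaining somatic Adam genes, Adam8, Adam15 and Adam33 were above the floor on both arrays with log2 ratios of 0.43, 0.03 and -0.65. Adam11, Adam19, Adam23 and Adam28 were above the floor on 1 array each, with bounds between -0.55 and 0.68 that do not limit how far apart they were.

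Of the 16 Adam genes known mainly from testis and epididymis, 12.5% were measured, against 72.8% of all genes. The other 14 were below the floor on both arrays. They included the sperm surface genes Adam2 and Adam3. Over the 14, signals ran from 2.93 to 55.2 on the early bulge and from 0.63 to 38.9 on the ORS array. The exceptions were Adam4, which read 170 and 175, and Adam1a, which read 67.1 and 79.7. Both had log2 ratios close to 0, of -0.05 and -0.25. By contrast all 12 somatic Adam genes reached the floor on at least 1 array. Adam24, Adam25, Adam26a and Adam34 lie in clusters of related copies on chromosome 8, so their probe sets may not tell the copies apart.

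Of 20 Adamts and Adamtsl genes, 17 (85%) were measured, the highest share of the 3 enzyme classes, against 72.8% of all genes. Of the 9 genes past 2-fold, 5 belonged here. Towards early bulge these were 2 of 17 (11.8%), against 7.3% of measured genes, and towards ORS 3 (17.6%), against 4.78%. The median log2 ratio of the 17 was -0.22, with values from -2.83 to 1.49. The 7 enzymes that cut versican and related proteoglycans were all measured and went both ways. Adamts5, a main aggrecanase, read 167 on the early bulge and 1183 on the ORS array, 7.10-fold higher on ORS. Other probe sets of Adamts5 read 120 and 957, and 150 and 578, which are 7.96-fold and 3.85-fold higher on ORS. All 3 measured probe sets thus gave a higher signal on ORS by more than 3-fold.

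Adamts20, whose loss gives the belted mouse its white belt through the melanoblasts, read 2539 on the early bulge and 9018 on the ORS array, 3.55-fold higher on ORS. It has 1 probe set, which was well above the floor on both arrays. Of 8 melanocyte markers, all above the floor on both arrays, 7 were less than 2-fold apart. Kit was 7.08-fold higher on ORS, and its second probe set gave a log2 ratio of -0.91. The summed signal of the 8 markers was 2958 on the early bulge and 3438 on the ORS array. The part of these markers in the Adamts20 ratio was not tested. Adamts9, a related enzyme that works beside it on versican in the skin, read 942 and 1486, a log2 ratio of -0.66, and its other probe sets gave -0.35 and 0.27. Adamts4 was just short of 2-fold with signals of 97.3 and 193, a log2 ratio of -0.98, and was past it under 3 rescalings of the arrays, between -1.16 and -1.20.

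Adamts15 and Adamts1 were the proteoglycan-cutting enzymes whose ratio pointed towards early bulge. Adamts15 read 162 on the early bulge and 57.4 on the ORS array, just below the floor, at least 2.81-fold higher on early bulge. Adamts1, which is induced by inflammation and in ovulation, read 7407 and 4962, a log2 ratio of 0.58. Adamts8 read 24.9 and 64.2, at least 1.11-fold higher on ORS. Neighbouring genes of this class did not share a direction. Adamts1 and Adamts5 adjoin on chromosome 16, and their log2 ratios were 0.58 and -2.83. Adamts15 and Adamts8 adjoin on chromosome 9, and theirs were 1.49 and, as a bound, -0.15.

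The pair that acts on cartilage oligomeric matrix protein was split between the arrays. Adamts12 read 149 on the early bulge and 716 on the ORS array, 4.80-fold higher on ORS, with its second probe set below the floor on both. The mean over its probe sets gave a log2 ratio of -1.11. Adamts7 read 128 and 22.1, at least 2.21-fold higher on early bulge. Both have 1 measured probe set.

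No other member of the class was called at 2-fold. The procollagen-processing enzyme Adamts3 read 82.9 and 102, a log2 ratio of -0.29. Adamts10, which binds fibrillin microfibrils, read 186 and 240.5, a log2 ratio of -0.37, and Adamts16 read 86.0 and 72.4. Adamts18 read 226 and 144, a log2 ratio of 0.64, and its second measured probe set was at least 1.60-fold higher in early bulge. The representing probe sets of these enzymes were above the floor on both arrays and less than 2-fold apart. Among the Adamtsl proteins, which lack a protease domain and associate with microfibrils, Adamtsl1 read 386 and 212, a log2 ratio of 0.87. Its other measured probe sets were 2.05-fold and at least 1.11-fold higher in early bulge. The mean over its probe sets gave a log2 ratio of 1.31. That mean was taken before the floor was applied and includes an ORS signal of 15.5, below the floor, so its size cannot be relied on. Adamtsl5 read 255 and 170, a log2 ratio of 0.58, and Adamtsl4 read 161 and 188, one of -0.22. Adamtsl2 read 31.0 and 76.1, at least 1.32-fold higher on ORS, and passed 2-fold with a log2 ratio of -1.30 where the floor was lower or absent. Adamts19, Adamts6 and Adamtsl3 were not measured, although a second probe set of Adamts6 read 5.05 and 103, above the floor on ORS only.

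**Figure D3:**
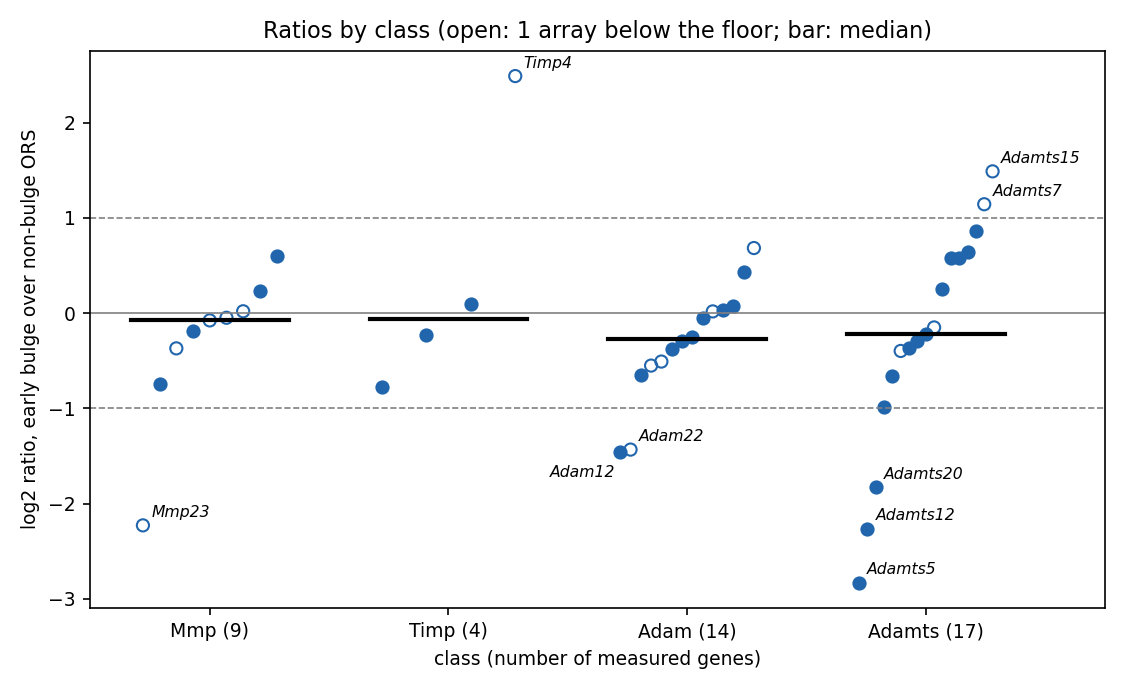
Log2 ratio (early bulge over non-bulge ORS) of the 44 measured genes by class. Filled points are above the floor on both arrays, open points on 1, thick bars are class medians, and dashed lines mark 2-fold. The medians lie between -0.06 and -0.27, and the named genes are the 9 past 2-fold.

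Genes that inhibit, activate or serve these enzymes were followed in 8 lists. Most of these lists are short, and 12.1% of all measured genes passed 2-fold either way. Reck, a membrane-anchored inhibitor of Mmp2, Mmp9 and Mmp14, read 329 on the early bulge and 1404 on the ORS array, 4.26-fold higher on ORS. It was the only one of 3 measured further inhibitors past 2-fold. Of 4 proprotein convertases, which cleave the propeptides of many Adam, Adamts and membrane-type Mmp proteins, Pcsk6 was past 2-fold. It read 1258 and 333, 3.78-fold higher on early bulge, while Furin read 1316 and 1192. Plasmin activates several Mmps, and of 6 measured genes of the plasminogen system Serpinf2 alone, which encodes the plasmin inhibitor alpha-2-antiplasmin, was past 2-fold, with 153 and 11.3, at least 2.64-fold higher on early bulge. Plau read 31.3 and 69.6 and Plat 2437 and 1945. None of 9 measured partners of Adam10 and Adam17 (tetraspanins, inactive rhomboids and related proteins) passed 2-fold, against 12.1% of all measured genes. For a list of 9 this is near that share. Rhbdf1 read 4119 and 3856, and Tspan5 read 921 and 1558.

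Several genes of proteins shed from the cell surface, many of them by Adam10 or Adam17, were higher in early bulge. Of 22 measured, 5 (22.7%) passed 2-fold towards early bulge, against 7.3% of all genes, and 1 (4.55%) towards ORS, against 4.78%. The median log2 ratio was 0.25, against 0.04 for all measured genes. The receptor ligand Epgn read 2116 on the early bulge and 622 on the ORS array, 3.40-fold higher on early bulge. Hbegf read 1417 and 639 and Tgfa 388 and 182, which are 2.22-fold and 2.13-fold, and another probe set of Tgfa gave a log2 ratio of 0.36. The hemidesmosome collagen Col17a1 was 5.20-fold higher on early bulge, and Cdh1, which encodes E-cadherin, 2.03-fold. Both also stand in the list of keratinocyte markers, which moved the same way, and the part of that list in this count was not tested. The interleukin receptor Il6ra read 106 and 243, 2.29-fold higher on ORS, while its second probe set gave a log2 ratio of -0.18. Notch1 read 6588 and 6423 and Notch2 2649 and 2488, both close to equal.

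A list of matrix genes held proteoglycans and procollagens, among them Adamts substrates, together with the fibrillin Fbn2 and the procollagen enhancer Pcolce. Of 9 measured, 6 passed 2-fold towards ORS, against 4.78% of all genes, and 1 towards early bulge, against 7.3%. The median log2 ratio was -1.90. Vcan, the proteoglycan versican, read 862 on the early bulge and 2729 on the ORS array, 3.16-fold higher on ORS, and another probe set gave a log2 ratio of -0.24. Of the other proteoglycans, Acan read 131 and 100.3 and Ncan 91.7 and 59.7, both less than 2-fold apart. Fbn2 read 245 and 915, 3.74-fold higher on ORS. The procollagen genes Col1a1, Col1a2 and Col3a1 and the enhancer Pcolce were 10.2-fold to 14.3-fold higher on ORS, and the procollagens also stand in the list of fibroblast markers. The brain proteoglycan Bcan was at least 38.4-fold higher on early bulge, and its second probe set gave a log2 ratio of 2.41. Of 7 other metalloproteinases, Tll1 was 2.56-fold higher on early bulge and Pappa2 3.70-fold on ORS, while Bmp1, which processes procollagen, read 1368 and 1457. Of 14 measured regulators of Mmp genes, Fosl2 was 2.68-fold higher on early bulge and Etv5 2.38-fold on ORS. That is 7.14% each way, against 7.3% and 4.78% of all genes, and 3 had the higher signal on ORS, against 47% of all genes.

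Markers of other cells moved with part of these results. The median log2 ratio of the 13 fibroblast markers was -3.57. The summed signal of the 8 pericyte and smooth muscle markers was 3659 on the early bulge and 18574 on the ORS array. Of these, 5 were above the floor on both arrays, and 4 passed 2-fold towards ORS. Among 6 hair matrix markers, 4 passed it towards ORS, with summed signals of 2259 and 8655. The part of these lists in the ratios of Adamts5, Adamts12, Adamts20, Mmp23, Adam12, Adam22, Timp3 and Reck was not tested. Towards early bulge, all 6 upper follicle markers and 5 of 7 sebocyte markers passed 2-fold. Their summed signals were 47815 and 8087 for the upper follicle and 23614 and 7202 for sebocytes. Those of the 8 keratinocyte markers were 99911 and 57645. All 8 keratinocyte markers, 4 of the upper follicle and 4 of the sebocyte markers were above the floor on both arrays. The remaining markers of these 3 lists were above it on the early bulge array only. The part of the 3 lists in the ratios of Timp4, Adamts15 and Adamts7 was not tested. Of 10 macrophage and neutrophil markers, 5 were below the floor on both arrays, among them the leukocyte gene Ptprc with 47.0 and 28.5. The macrophage genes Csf1r, Adgre1 and Lyz2 were above the floor on both arrays and less than 2-fold apart, and S100a8 was at least 2.60-fold higher in early bulge. Of 7 endothelial markers, 4 were below the floor, among them Pecam1 with 9.41 and 11.9. The 3 measured ones were all higher on ORS, with a median log2 ratio of -0.63, and Tek was 4.09-fold higher there.

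**Figure D4:**
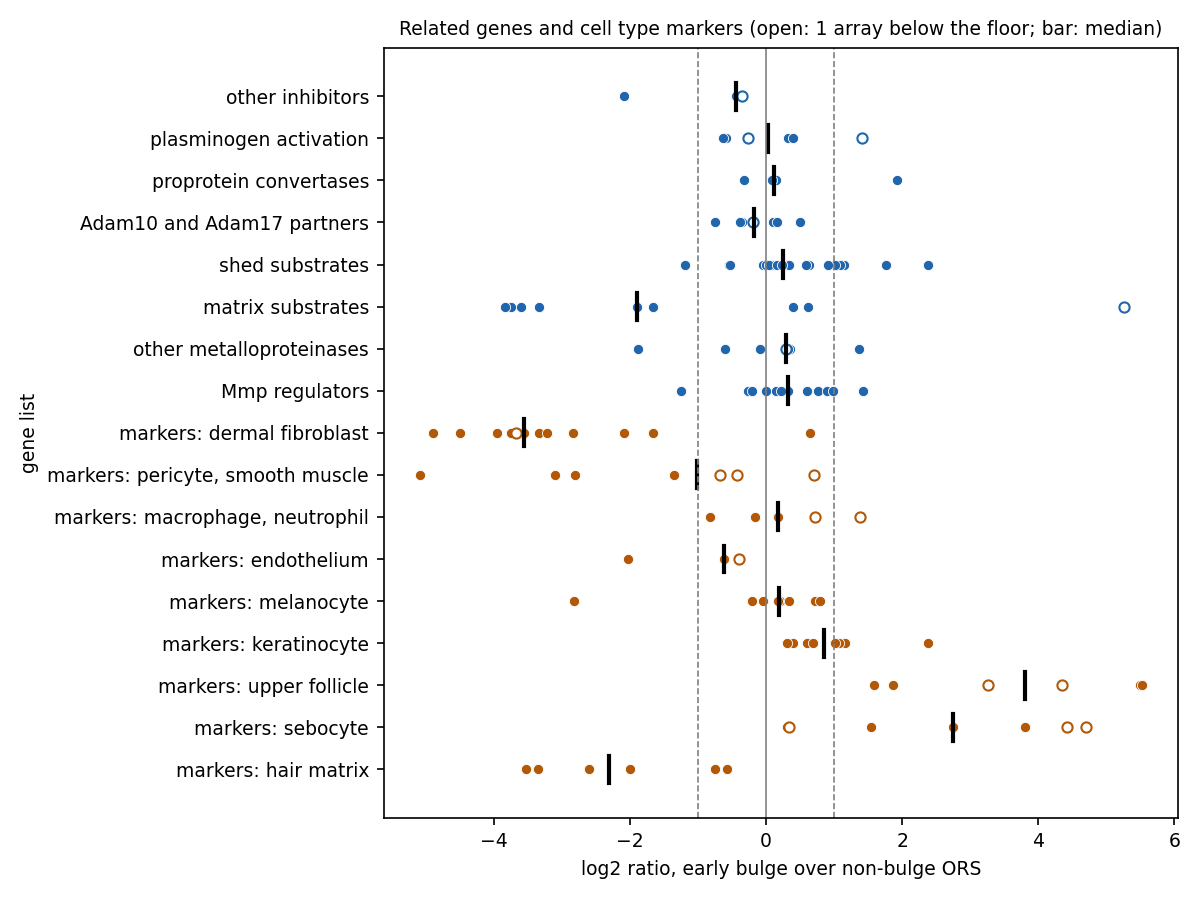
Log2 ratio (early bulge over non-bulge ORS) of the measured genes of 8 related lists (blue) and 9 lists of cell type markers (orange). Open points have 1 array below the floor, thick bars are medians and dashed lines mark 2-fold. Fibroblast markers centre on -3.57. None of the 9 partners of Adam10 and Adam17 passes 2-fold, against 12.1% of all measured genes either way.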

How the data were processed

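Each population was hybridised to 1 Affymetrix expression array as biotinylated cRNA from total RNA, per the labels' protocols. Values were deposited as linear signal intensity values of probe sets, which the authors computed by MAS5 (software Affymetrix Expression Console, as the submitters' processing notes say). Both arrays have a 2% trimmed mean of 500.0, so they were scaled to one target. MAS5 is noisy at low signals. Detection calls were not used here. Precision is limited by the number of arrays. No genome build is stated for the array values. The median signals were 102 on the early bulge and 88.0 on the ORS array, and 62.0% and 58.0% of non-control probe sets were at or above the floor.

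Probe sets were named from the platform annotation. All 70 member symbols are in the RefSeq table used (GRCm38.p6), and 15 further member genes of that table had no probe set of their own. Probe sets with several genes and the 64 controls were left out. Ratios were computed with numpy 2.4.6 and pandas 2.3.3 and the procedure was tested on simulated arrays. These had noise of the same size at every signal, and changes were placed only in genes well above the floor. The simulation therefore does not cover calls near the floor. Per the rule for named genes, given in full were the genes at least 2-fold apart, all Timp genes, the measured Mmp genes, the Adam and Adamts genes above the floor on both arrays, and up to 4 genes per related list by size of ratio. Furin, Plau, Plat, Rhbdf1, Tspan5, Notch1, Notch2, Fos, Jun, Fosl1, Acan, Ncan, Bmp1, Tgfa, the cell type markers, the synapsins, the unmeasured or bound genes given with signals, and the probe sets of Mmp16 and Adamts6 were named after their values were seen. Members, lists and settings were chosen with earlier results of these data known.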

Additional observations from a re-analysis of the deposited data

How the results depend on the processing

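No paired analysis was possible because each population has 1 array and the labels give no replicate numbers, so leaving out an array was not possible either. The counts of genes past 2-fold depend on the floor. With the floor at the 20th percentile, 8 members were at least 2-fold higher on early bulge and 12 on ORS, over 63 measured genes. With no floor these were 13 and 15 over all 70. Raising the floor to the 60th percentile left 0 and 3 over 25. Adamts7, Adamts15 and Adam22 were then not measured. Timp4, Mmp23 and Adam12 stayed measured but fell below 2-fold, since the higher floor replaced their dimmer signal. Under the other 6 planned settings and 1 chosen after seeing the data (the representing probe set picked after raising signals to the floor), the counts stayed between 2 and 4 on early bulge and between 5 and 7 on ORS. Adamts5, Adamts12 and Adamts20 were past 2-fold under all 10 alternatives. Means over probe sets were taken before the floor was applied, so they include signals below it. For Adamts12 this mean gave a log2 ratio of -1.11, which is a bound. Adamts7, which rests on a bound, was past 2-fold under the 9 alternatives that measured it. Its log2 ratio fell to 1.01 under 1 rescaling of the arrays, and the 60th percentile floor left it unmeasured. The log2 ratio of Timp4 ran from 0.92 (60th percentile floor) to 4.49 (no floor), that of Mmp23 from -0.66 to -3.79 at these floors, and that of Adamts15 was 0.93 with a pseudocount in place of the floor. Adam12 had -0.47 with the 60th percentile floor and -0.29 as the mean over probe sets. Adam22 had -0.91 with a pseudocount and -0.15 as that mean. The median of the Adam class turned from -0.27 to 0.16 with the 20th percentile floor and to 0.09 with none, with more dim genes included. Median centring moved the median of all genes from 0.04 to -0.17. Of the 44 measured members, 3 (Adam15, Adam17 and Timp2) changed sign under a rescaling. Signals near the floor limit what can be said of the 15 genes that passed on 1 array.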

Other observations

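Probe sets annotated to several genes were outside the ratios above. A set of 4 probe sets shared by Adam1a and Mapkapk5 read 75.2 to 290 on the early bulge and 116 to 225 on the ORS array, so Adam1a cannot be told apart from its neighbour there. The probe set shared by Adam6a and Adam6b read 24.6 and 50.4, below the floor on both arrays.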
